A study of Homo sapiens with 12 samples.

Results

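This section follows 9 genes that cut, or limit the cutting of, the extracellular matrix: the matrix metalloproteinases MMP1, MMP2, MMP3 and MMP14, the tissue inhibitors of metalloproteinases TIMP1, TIMP2 and TIMP3, the urokinase plasminogen activator PLAU and its receptor PLAUR. They were chosen by name, with earlier results of these data known, and each matched 1 identifier among the 63568 of the count table. The cells were MDA-MB-231, a human triple negative breast cancer line, expressing a green fluorescent protein (GFP) and embedded in Matrigel droplets on glass, and all 12 samples share that line and its wild-type label. The samples form 6 groups of 2 replicates: C1, untreated and taken on day 2; C2, untreated and taken on day 4; and 4 groups given Paclitaxel at 0.0005, 0.005, 0.05 or 0.5 μM and taken on day 4. By the treatment label the drug was given on day 2, whereas the methods of the study, for the cultures whose procedure the RNA samples repeated, name a later day. Before RNA extraction every culture was released from the gel with collagenase and dispase. All groups are therefore a single cell line in a single gel.

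Metalloproteinases are zinc enzymes that are mostly secreted as inactive proforms and activated by cleavage. MMP1 is an interstitial collagenase, MMP3 (stromelysin) cuts many matrix proteins and can activate other proforms, MMP2 is a gelatinase, and MMP14 is anchored in the membrane, where it cuts collagen and activates proMMP2. The TIMPs bind the active enzymes. PLAU turns plasminogen into plasmin, and PLAUR holds PLAU at the cell surface. MDA-MB-231 is widely used as an invasive line that expresses MMP1, MMP14 and PLAU.

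The question put to the data was how the RNA of these genes differs between treated and untreated cultures, between days, and along the dose. Total counts ran from 38380629 to 79169121 per sample. C1 replicate 2 stood apart, with the lowest total, 7.74% mitochondrial counts against 3.73% to 6.18% in the other libraries, and a correlation of -0.37 between its deviations and GC content, where the others lay between -0.19 and 0.31. The markers expected of the line were present: VIM had 797 to 1366 CPM (counts scaled to a common library size by TMM), CD44 237 to 388 CPM and KRT18 110 to 188 CPM, while ESR1, PGR and CDH1 stayed at or under 0.46 CPM. ERBB2 had 26.6 to 52.4 CPM and EPCAM 4.37 to 6.77 CPM. For markers of other cell types, the summed level of 7 fibroblast markers was 8.83 to 16.9 CPM in untreated and 12.3 to 19.7 CPM in treated samples, most of it COL1A1 (4.80 to 9.85 CPM) and PDGFRB (3.61 to 9.15 CPM), with COL3A1 up to 1.52 CPM and COL1A2 and DCN at or under 0.153 CPM, 3 endothelial markers summed to 0.418 to 1.51 and 1.96 to 2.94 CPM, and 5 leukocyte markers to 0.537 to 0.829 and 1.22 to 1.75 CPM. The endothelial and leukocyte sums were higher in every treated than in every untreated sample, with MS4A1 at 0 in all. Against C2, 1, 1, 2 and 2 of 5 tested fibroblast markers, 0, 0, 1 and 1 of 3 endothelial and 0, 0, 1 and 1 of 3 leukocyte markers were called higher from the lowest to the highest dose. Over all genes these shares were 1.87%, 2.5%, 5.09% and 4.36%. The endothelial marker called was KDR (mean 1.27 CPM over all samples) and the leukocyte marker CD14 (mean 0.933 CPM), both at low levels. The fibroblast marker called at each dose was FAP, which had 0 counts in C2 and 5 to 14 in treated samples and passed the filter on low counts only through treated groups, so its calls are no result on their own, and COL3A1 was called at the 2 higher doses. The part of such RNA in the results was not tested. In bulk RNA, fewer cells of a type and less RNA per cell cannot be told apart.

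MMP1 and MMP3 had far higher RNA levels in treated than in untreated cultures, and the rise was largest at the lowest dose. MMP1 rose 9.34-fold at 0.0005 μM and 2.21-fold at 0.5 μM against C2, and MMP3 rose 18.2-fold and 3.65-fold. TIMP3 fell at 0.005 μM and, with all doses pooled, in treated against untreated samples. MMP14, TIMP1, TIMP2, PLAU and PLAUR passed the test in none of the 8 comparisons, and MMP2 was hardly expressed.

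The positions on GRCh37 (GENCODE release 44, lifted) and the neighbours of each gene bear on how its counts are read. MMP1 (ENSG00000196611) lies at chr11:102660132-102668891 on the minus strand and MMP3 (ENSG00000149968) at chr11:102706532-102714340, also on the minus strand, in a cluster of metalloproteinase genes. WTAPP1 on the plus strand shares 223 exonic bases with MMP1 and 32 with MMP3. MMP2 lies at chr16:55423612-55540603, MMP14 at chr14:23305769-23318250, TIMP1 at chrX:47441807-47446188, TIMP2 at chr17:76849059-76921469, TIMP3 at chr22:33197691-33259028, PLAU at chr10:75668935-75677254 and PLAUR at chr19:44150247-44174699. PLAU shares 915 exonic bases with C10orf55 on the other strand, TIMP2 shares 591 with CEP295NL on its own strand and ENSG00000267601 on the other, and MMP2 shares 174 with ENSG00000279030 on its own strand. The strand used in counting is not given in the sources used here, so reads in shared bases cannot be assigned to one gene.

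Sequence upstream of the start was read from RefSeq (GRCh38.p14) for the members that the table holds, MMP14, TIMP1, TIMP3, PLAU and PLAUR, and for the neighbouring cluster gene MMP10. MMP1, MMP2, MMP3 and TIMP2 are not shown. The 7-letter motif TGANTCA, the palindromic element bound by AP-1 (dimers of Fos and Jun proteins, known regulators of MMP1, MMP3 and PLAU), was searched in the 300 bases from 250 before to 50 after each start. It was in 2707 of 35116 such windows (7.71%), and among the 5 members with an entry only PLAUR had it. A pair of stretches, the 250 bases before each start, is given because they hold the motif, 1 from a gene that rose and 1 from a gene that did not pass the test, with the motif in capitals.
MMP10, chr11:102780629-102780878, minus strand: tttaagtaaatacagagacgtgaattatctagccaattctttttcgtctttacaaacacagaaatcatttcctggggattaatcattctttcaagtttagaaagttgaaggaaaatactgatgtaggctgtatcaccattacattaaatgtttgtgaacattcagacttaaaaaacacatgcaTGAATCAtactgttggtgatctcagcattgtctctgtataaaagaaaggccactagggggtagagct
PLAUR, chr19:43670170-43670419, minus strand: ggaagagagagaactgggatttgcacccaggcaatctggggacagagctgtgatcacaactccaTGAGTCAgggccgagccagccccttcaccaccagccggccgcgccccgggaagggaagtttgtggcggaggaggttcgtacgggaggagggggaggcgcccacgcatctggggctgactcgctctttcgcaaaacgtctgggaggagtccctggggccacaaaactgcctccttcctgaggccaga
The match lies 67 to 61 bases before the start in MMP10 and 186 to 180 bases before it in PLAUR. A match is a description of the letters only. MMP10 was the only gene outside the members that was searched, and MMP13 and SERPINB2, which also rose, were not. The pair therefore cannot link the motif to a change in level.

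MMP1 was measured with 838 to 21463 counts per sample. Its level was 13.8 and 25.0 CPM in the C1 samples (replicates 1 and 2), 22.7 and 40.6 CPM in C2, 285 and 305 CPM at 0.0005 μM, 183 and 202 CPM at 0.005 μM, 113 and 90.5 CPM at 0.05 μM, and 70.1 and 69.7 CPM at 0.5 μM. Every treated sample was above every untreated sample, and the 4 doses did not overlap with each other. Against C2, MMP1 rose by a log2 change of 3.22 (SE 0.30) at 0.0005 μM, 2.61 (SE 0.29) at 0.005 μM, 1.68 (SE 0.28) at 0.05 μM and 1.15 (SE 0.28) at 0.5 μM. The Benjamini-Hochberg adjusted p-values of the edgeR quasi-likelihood test were 1.58e-04, 8.01e-04, 0.00516 and 0.0350. These 4 comparisons share the same C2 samples. In rank of CPM per kilobase of exon among 22268 genes with a length, MMP1 was at 7115, 4499, 4954 and 2788 in the untreated samples and at 341 and 366 at 0.0005 μM.

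MMP3 had 32 to 1184 counts per sample and lower levels throughout. It was at 0.674 and 0.955 CPM in C1, 0.753 and 1.14 CPM in C2, 15.7 and 18.7 CPM at 0.0005 μM, 11.8 and 10.8 CPM at 0.005 μM, 7.18 and 6.45 CPM at 0.05 μM, and 3.56 and 3.33 CPM at 0.5 μM. As for MMP1, no treated sample overlapped with an untreated one, and the doses fell in the same order. Against C2, MMP3 rose by a log2 change of 4.19 (SE 0.23), 3.59 (SE 0.23), 2.85 (SE 0.22) and 1.87 (SE 0.23) from the lowest to the highest dose. The adjusted p-values were 3.14e-06, 1.56e-05, 4.11e-05 and 0.00106 in edgeR's quasi-likelihood test, also Benjamini-Hochberg adjusted.

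**Figure D1:**
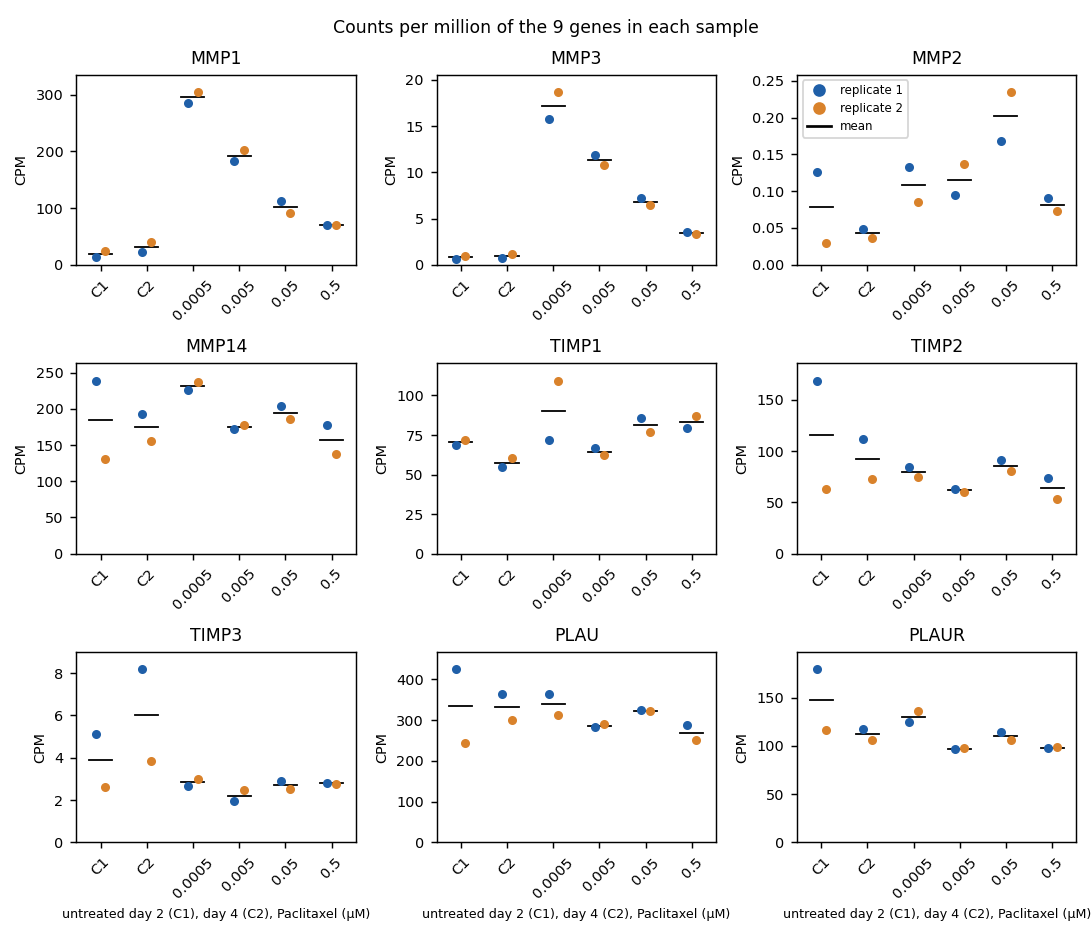
Scaled counts (CPM, linear axes from 0) of the 9 genes in each of the 12 samples, untreated on day 2 (C1) and day 4 (C2) and at 4 Paclitaxel doses in μM, with 1 point per replicate and a bar at the mean of 2. MMP1 is highest at 0.0005 μM (285 and 305 CPM) and MMP3 follows the same order, while the other 7 genes show no such order.

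Among all 25249 genes tested, 1.87%, 2.5%, 5.09% and 4.36% were called higher than in C2 from the lowest to the highest dose. Of the 9 members, 2 were called higher at each dose, MMP1 and MMP3. The shares of genes called lower were 0.479%, 0.776%, 3.23% and 1.96% in the same order, and of the members 1 was called lower, TIMP3, at 0.005 μM only. The median log2 change of the members, with MMP2 and its few counts among them, was 0.41, 0.00, 0.16 and -0.15 from the lowest to the highest dose. Over all genes it was -0.01, 0.04, -0.01 and 0.04.

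**Figure D2:**
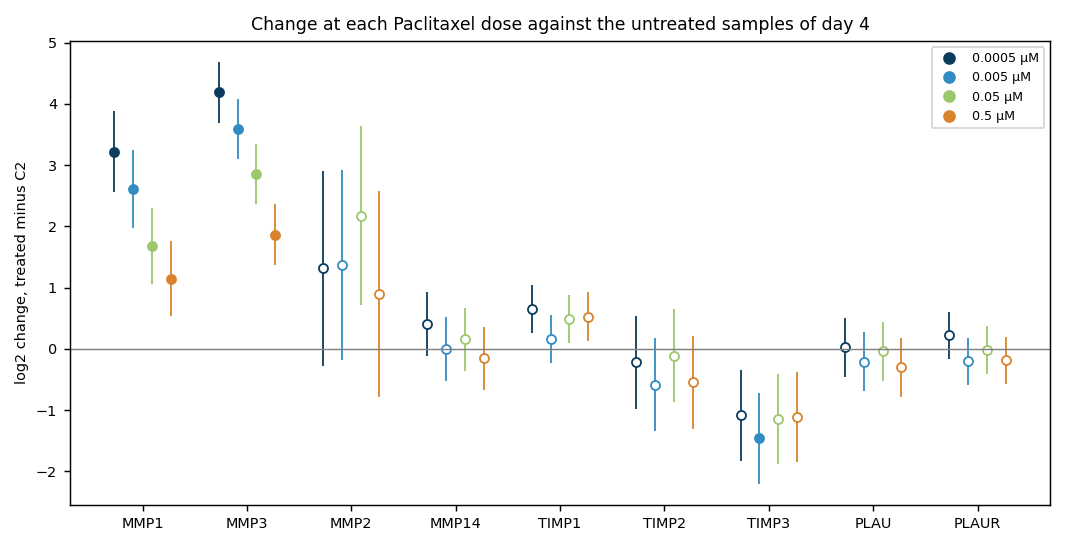
The log2 change of each of the 9 genes against C2 (vertical axis) at the 4 Paclitaxel doses, with 95% intervals from the fitted model; filled points were called at an adjusted p-value under 0.05 and open points were not. MMP1 and MMP3 lie above 0 at every dose and descend with dose, and the interval of TIMP3 lies below 0 at every dose though only 1 dose was called; the points of MMP2 rest on 1 to 18 counts per sample.

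The dependence on dose was tested within the treated samples. Between 0.5 and 0.0005 μM, MMP1 fell by 2.08 on the log2 scale (SE 0.29, 4.22-fold, adjusted p = 0.00883) and MMP3 fell by 2.32 (SE 0.20, 4.99-fold, adjusted p = 3.87e-04, edgeR quasi-likelihood test). Of all genes, 0.337% were called lower in that comparison, against 2 of the 9 members. With the members chosen knowing earlier results, such shares are a description only. On the slope over the 8 treated samples, MMP1 fell by 0.72 (SE 0.05) and MMP3 by 0.76 (SE 0.05) on the log2 scale for every 10-fold rise in dose, each with an adjusted p of 4.87e-07. Of 25057 genes 2.11% were called lower on the slope, and 2 of the 9 members. Between neighbouring doses 0 of all 25249 genes were called, so those comparisons do not order the levels of MMP1 and MMP3. Over 100-fold steps in dose, MMP3 was called lower at 0.05 than at 0.0005 μM (log2 change -1.34, adjusted p = 0.0272, 25 genes called) and at 0.5 than at 0.005 μM (-1.72, adjusted p = 0.0164, 8 genes called), and MMP1 was not (-1.54 and -1.46, adjusted p = 0.0705 and 0.246, edgeR quasi-likelihood test). The MMP1 call at 0.5 against 0.0005 μM was lost when any of its 4 libraries was left out (log2 change -2.13 to -2.03), with adjusted p-values from 1.32e-24 to 0.174 over 21 alternatives. That of MMP3 was kept in all 21.

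With all doses pooled, the test of 8 treated against 4 untreated samples covered 23645 genes, of which 13% were called higher and 11.5% lower. MMP1 was 6.51-fold higher (SE of the log2 change 0.44, adjusted p = 4.55e-04), and MMP3 was higher by a log2 change of 3.49 (SE 0.47, adjusted p = 1.04e-04) in edgeR's quasi-likelihood test. The treated samples lay wholly above the untreated for 7.28% of genes, MMP1 and MMP3 among them, and wholly below for 6.14%, with no member among those. With C2 alone as the untreated group the log2 change of MMP1 was 2.39 with an adjusted p of 0.0564, where all 20 alternatives ran from 8.41e-07 to 0.0564.

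The weakest of the calls of MMP1 was that at 0.5 μM against C2. It was lost when any 1 of 8 of the 12 libraries was left out: C2 replicate 1, both at 0.0005 μM, both at 0.005 μM, replicate 2 at 0.05 μM and both at 0.5 μM. Without C2 replicate 1 the log2 change was 0.78 with an adjusted p of 0.297, the largest of the 22 alternatives, which began at 1.77e-07. The call at 0.05 μM was lost without C2 replicate 1 alone, at 1.32 and an adjusted p of 0.0625 (alternatives from 4.93e-17). The calls of MMP1 at 0.0005 and 0.005 μM and of MMP3 at all 4 doses were kept in each of their 22 alternatives.

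Between the untreated days, none of the 9 members was called, with 0 in DESeq2 as well, 2 at an unadjusted p under 0.05, and 0.325% of all genes called. MMP1 had a log2 change of 0.71 from C1 to C2 (95% interval 0.10 to 1.33, adjusted p = 0.451), and MMP3 of 0.26 (-0.31 to 0.82, adjusted p = 0.751, edgeR quasi-likelihood test). Leaving out 1 of the C1 libraries leaves that group with 1 sample, which is then assumed to vary like the other groups, and raised the calls over all genes from 82 to 1884 (without replicate 2) and 2682 (without replicate 1, with the library that stood apart alone in the group). In those fits MMP1 (1.23), TIMP2 (-0.84) and PLAUR (-0.65) were called without replicate 2, and TIMP3 (1.20) without replicate 1.

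MMP14, the membrane collagenase and activator of proMMP2, was the most abundant of the 4 metalloproteinases in untreated cells per kilobase of exon. It was at 239 and 131 CPM in C1, 193 and 156 CPM in C2, 226 and 237 CPM at 0.0005 μM, 172 and 177 CPM at 0.005 μM, 204 and 186 CPM at 0.05 μM and 177 and 137 CPM at 0.5 μM. Both samples at 0.0005 μM were above both of C2, but treated and untreated samples overlapped as a whole. Its log2 changes against C2 were 0.41, 0.00, 0.16 and -0.15, with the 95% interval at 0.0005 μM from -0.11 to 0.92. That value was called in 1 of 22 alternatives, the 4 samples of the comparison alone (0.43, adjusted p = 0.0367, over alternatives up to 0.782). MMP2, the gelatinase that MMP14 activates, had between 1 and 18 counts per sample, 89 in all 12. It passed the filter on low counts only through the group at 0.05 μM, with 12 and 18 counts there against 3 and 2 in C2, so its fitted values are no result.

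Of the inhibitors, TIMP3, which is retained in the matrix, was at 5.11 and 2.63 CPM in C1, 8.17 and 3.86 CPM in C2, and between 1.95 and 3.01 CPM in the 8 treated samples. C1 replicate 2 lay within the treated range, and the other 3 untreated samples above it. Against C2 it had log2 changes of -1.08, -1.45, -1.15 and -1.11 from the lowest to the highest dose, or -0.44, -0.82, -0.51 and -0.47 without C2 replicate 1, and only that at 0.005 μM passed the test (adjusted p = 0.0403; the others had 0.128, 0.0581 and 0.0764). In treated against untreated samples it fell by 0.91 on the log2 scale (SE 0.21, adjusted p = 0.00496), and this call was kept in its 20 alternatives. The call at 0.005 μM was lost in 9 of 22 alternatives, each leaving out 1 library: C2 replicate 1, or any of the 8 treated libraries. Without C2 replicate 1 its adjusted p was 0.427, over alternatives from 1.92e-07. Without both C1 samples in the fit the calls over all genes rose from 592, 827, 2100 and 1596 to 2576, 3187, 4817 and 5033 of 25109, and TIMP3 was called lower at all 4 doses, with adjusted p-values of 0.0154, 0.00255, 0.00644 and 0.00765, where all alternatives ran from 4.62e-04 to 0.649, 1.92e-07 to 0.427, 1.24e-04 to 0.503 and 1.65e-04 to 0.634.

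TIMP1, a secreted inhibitor of most metalloproteinases, was at 68.7 and 71.8 CPM in C1, 54.5 and 60.7 CPM in C2, 71.5 and 109 CPM at 0.0005 μM, 66.7 and 62.1 CPM at 0.005 μM, 85.7 and 76.8 CPM at 0.05 μM and 79.5 and 86.8 CPM at 0.5 μM. Every treated sample was above both C2 samples, and the samples at 0.005 μM were below both of C1. The log2 changes against C2 were 0.65, 0.16, 0.50 and 0.53 with adjusted p-values of 0.0877, 0.659, 0.116 and 0.105, so no dose passed the test. At 0.0005 μM the log2 change was 0.31 without replicate 2 of that dose and 0.92 without its replicate 1, and the value was called in 7 of 22 alternatives, the latter among them. Without both C1 samples, where the calls over all genes rose as given for TIMP3, TIMP1 was called at 0.0005 μM (0.66, adjusted p = 0.0144), 0.05 μM (0.51, adjusted p = 0.0299) and 0.5 μM (0.53, adjusted p = 0.0257), and over all alternatives the adjusted p ran from 0.00407 to 0.607 at 0.0005 μM, 0.0109 to 0.433 at 0.05 μM and 0.0219 to 0.481 at 0.5 μM. In treated against untreated samples TIMP1 had a log2 change of 0.33 (95% interval 0.05 to 0.61, adjusted p = 0.0813), and it was called with GC and length correction, without and with the replicate block (0.35 in both), over alternatives from 0.0363 to 0.239.

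TIMP2, which can take part in the activation of proMMP2 by MMP14, was at 169 and 63.1 CPM in C1, 112 and 72.8 CPM in C2, and between 53.2 and 91.0 CPM in treated samples. These ranges overlapped as a whole, though both samples at 0.005 μM (63.2 and 60.3 CPM) were below both of C2. The log2 changes against C2 of -0.22, -0.58, -0.11 and -0.54 all had intervals that held 0. In treated against untreated samples the value was -0.51 (95% interval -0.94 to -0.08, adjusted p = 0.0788), and it was called without C1 replicate 2 (-0.70, adjusted p = 0.0174) and without C2 replicate 2 (-0.65, adjusted p = 0.0352), over alternatives from 0.0174 to 0.508.

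Neither PLAU nor PLAUR passed the test in the 8 comparisons. PLAU was the most abundant member per kilobase in the untreated samples, at 425 and 243 CPM in C1, 363 and 300 CPM in C2, and between 250 and 364 CPM in the treated. Its log2 changes against C2 lay between -0.30 and 0.03, with 95% intervals that together spanned -0.78 to 0.51. PLAUR was at 179 and 117 CPM in C1, 118 and 106 CPM in C2, 125 and 136 CPM at 0.0005 μM and 96.6 to 114 CPM at the 3 higher doses. Its log2 changes against C2 were 0.22, -0.20, -0.02 and -0.19 and none passed the test. Both genes overlapped between treated and untreated samples. Over all pairs of groups, compared after the data were seen, PLAUR was called lower at 0.005 μM than in C1 (log2 change -0.61, adjusted p = 0.0447, 3204 of 25249 genes called) and not at the other doses. That pair was not refitted without a C1 library. Between 0.5 and 0.0005 μM, PLAUR had a log2 change of -0.41 (adjusted p = 0.318) and MMP14 of -0.56 (adjusted p = 0.303), and both were called without both C1 samples in the fit, where the calls over all genes rose from 104 to 1443 (for PLAUR an adjusted p of 0.0296, over alternatives from 0.0296 to 0.982). MMP14 was called in 4 of 21 alternatives there, with adjusted p-values over all of them from 0.0202 to 0.9999, and its log2 change was -0.39 without replicate 2 at 0.5 μM and -0.77 without replicate 1.

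CPM per kilobase of exon divides by all annotated exons of a gene joined, such as 1446 bases for TIMP1 and 4457 for PLAUR. Levels between genes therefore depend on the annotation, and the transcripts in use were not measured. PLAU also shares 915 of its 2949 bases with C10orf55. On this scale the order among the members was PLAU, TIMP1, MMP14 and PLAUR in C2 (means 112.5, 39.8, 37.8 and 25.1), followed by TIMP2 (14.9), MMP1 (11.5), TIMP3 (1.31), MMP3 (0.511) and MMP2. TIMP1 and MMP14 in C2 were within 1 SD of each other (SD 3.05 and 5.64, n = 2), as were TIMP2 and MMP1 (SD 4.49 and 4.61). At 0.0005 μM MMP1 had a mean of 107.8 per kilobase (SD 5.13), within 1 SD of PLAU at 115 (SD 12.2) and above TIMP1 at 62.6 (SD 18.5). The sum over the 4 metalloproteinases per kilobase was 37.9 to 57.1 in untreated samples and 161.6 and 172.9 at 0.0005 μM. MMP14 held 68.6% to 90.5% of it without the drug and 30.3% and 29.7% at 0.0005 μM, where MMP1 held 64.5% in both samples.

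The ratio of the summed metalloproteinases to the summed TIMPs was 0.627 to 0.902 in the untreated samples, 2.54 and 1.96 at 0.0005 μM, 1.95 and 2.22 at 0.005 μM, 1.20 and 1.15 at 0.05 μM, and 0.976 and 0.822 at 0.5 μM. The highest dose overlapped with the untreated samples. RNA sums say nothing of enzyme activity, the ratio depends on the same exon lengths, and no test was run on it.

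**Figure D3:**
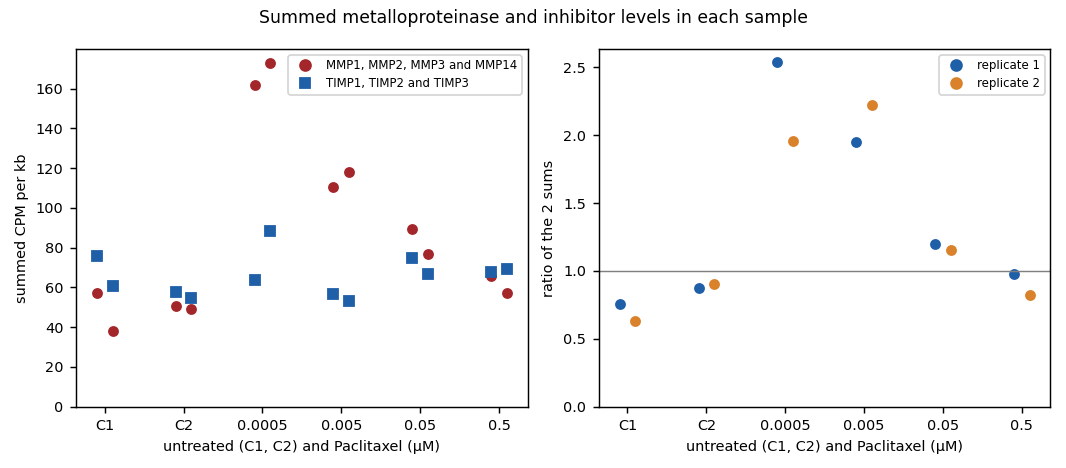
Summed levels per kilobase of exon of MMP1, MMP2, MMP3 and MMP14 (circles) and of TIMP1, TIMP2 and TIMP3 (squares) in each sample, left, and the ratio of these sums, right, for the untreated C1 and C2 and 4 Paclitaxel doses in μM. The ratio lies between 1.96 and 2.54 at 0.0005 μM and between 0.627 and 0.902 in the untreated samples.

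Genes close to MMP1 on chromosome 11 were compared at 0.0005 μM against C2, a comparison added after the data were seen. Of 46 annotated genes within 1 Mb of MMP1, 18 were tested and 5 were called, all higher: MMP10, MMP1, MMP3, MMP12 and MMP13. Over all genes 1.87% were called higher and 0.479% lower at this dose. The window was centred on MMP1 after its rise was seen and holds MMP3 too, so the count is no result on its own. MMP10 is a second stromelysin, MMP13 a collagenase and MMP12 a macrophage elastase. MMP12 had 0 or 1 count in every untreated library and was kept for testing only through treated groups. The 13 others were not called, among them ENSG00000225678, a pseudogene with 0 counts in C2 and at most 21 elsewhere, for which no fold is given. The log2 changes of the other 12 began at -0.56 (ENSG00000260966), with TRPC6 at 1.20, CEP126 at -0.50, and BIRC3, BIRC2, YAP1, TMEM123, DCUN1D5 and DYNC2H1 between -0.26 and 0.17. The highest was that of WTAPP1, which overlaps MMP1 and MMP3, at 1.87 (SE 0.84, adjusted p = 0.284, edgeR quasi-likelihood test). WTAPP1 had 0 to 39 counts per sample and 0.0164 and 0.129 CPM in C2, so its value rests on few counts.

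**Figure D4:**
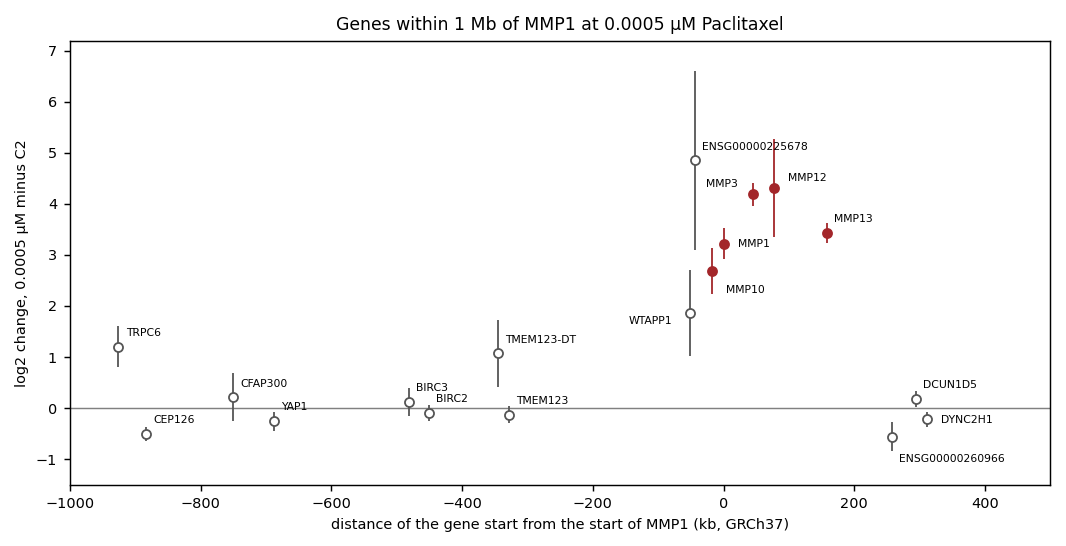
The log2 change at 0.0005 μM against C2 (vertical axis) of the 18 tested genes within 1 Mb of MMP1, by the distance of their start from that of MMP1 in kilobases; bars are standard errors and filled points were called. The 5 called genes are MMP10, MMP1, MMP3, MMP12 and MMP13, and the 13 others were not called. MMP12 and ENSG00000225678 had untreated samples at 0 counts, so their fitted values are no bound, and WTAPP1 had 0 to 39 counts per sample.

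Of the 19 other metalloproteinases, 13 were tested, and 4, 5, 4 and 3 were called higher against C2 from the lowest to the highest dose, with 0, 0, 1 and 1 called lower, and DESeq2 called 2, 3, 4 and 3 in either direction. Over all genes 1.87%, 2.5%, 5.09% and 4.36% were called higher, and 0.479%, 0.776%, 3.23% and 1.96% lower. MMP13 was at 0.815 and 1.07 CPM in C1, 2.05 and 2.87 CPM in C2 and 26.2 and 26.7 CPM at 0.0005 μM, falling to 6.05 and 5.92 CPM at 0.5 μM. It was called in all 8 comparisons, with log2 changes of 3.43, 2.64, 1.64 and 1.29 against C2, 1.41 between the untreated days and a slope of -0.75. The call between the days was lost without C2 replicate 2 (1.15, adjusted p = 0.0903) and in the 4 samples of that comparison alone, where 0 genes were called, over 20 alternatives with adjusted p-values from 7.84e-06 to 0.998. MMP10 was at 1.47 and 4.67 CPM in C2 and 18.0 and 21.3 CPM at 0.0005 μM (log2 change 2.69, adjusted p = 0.00821, edgeR quasi-likelihood test), and it was not called at 0.05 and 0.5 μM (0.94 and 0.30). MMP19 took another course, with log2 changes against C2 of 0.81 at 0.005 μM, 1.52 at 0.05 μM and 1.26 at 0.5 μM that passed the test. MMP16, which sits in the membrane, fell at 0.05 μM by 0.74. MMP9, a gelatinase, had 0 to 3 counts in untreated and 7 to 31 in treated samples, and MMP12 had 0 to 1 and 2 to 21. These 2 genes are among those counted as higher at the 3 lower doses, MMP9 also at 0.5 μM, but they passed the filter only through treated groups, so the count with them is no result on its own.

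Of the other inhibitors TIMP4, RECK and A2M, 2 were tested. TIMP4 was at 28.9 and 23.9 CPM in C1, 39.1 and 21.7 CPM in C2 and between 11.3 and 15.8 CPM in treated samples, with no overlap. It fell at all 4 doses, by 1.04, 1.01, 1.25 and 1.12 on the log2 scale, with adjusted p-values of 0.0382, 0.0367, 0.00865 and 0.0183 in edgeR's quasi-likelihood test. Without C2 replicate 1 the log2 changes were -0.55, -0.53, -0.76 and -0.64 and none was called, and over all alternatives the calls were lost in 9, 8, 2 and 3 of 22. TIMP4 shares 170 exonic bases with SYN2 on the other strand. RECK, a membrane inhibitor, fell at 0.005 μM by 0.78 and at 0.05 μM by 0.69. In the plasminogen system 11 of 12 genes were tested, and 2, 1, 1 and 1 were called higher and none lower along the dose. The shares of all genes called higher were 1.87%, 2.5%, 5.09% and 4.36%. SERPINB2, an inhibitor of PLAU, was at 0.262 and 0.681 CPM in C2 and 28.4 and 28.2 CPM at 0.0005 μM. It rose by a log2 change of 5.93, 5.55, 4.89 and 4.31 from the lowest to the highest dose, kept in all 22 alternatives of each. SERPINE2 rose at 0.0005 μM (0.81), and PLAT, the tissue-type activator, was not called at any dose.

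**Figure D5:**
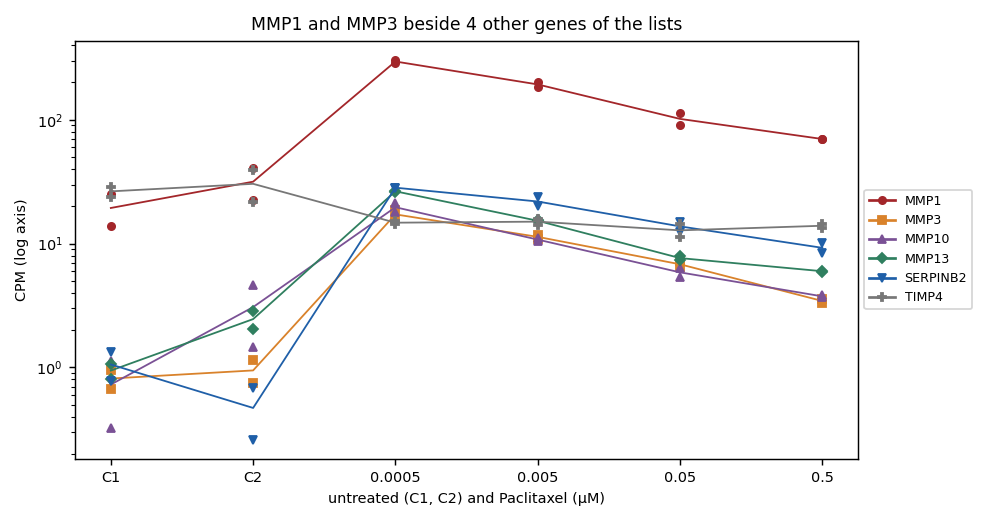
CPM on a log axis of MMP1, MMP3, MMP10, MMP13, SERPINB2 and TIMP4 in the untreated C1 and C2 and at 4 Paclitaxel doses in μM; points are samples and lines join group means. The first 5 peak at 0.0005 μM and descend with dose, and TIMP4 lies between 11.3 and 15.8 CPM at every dose.

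Among the 12 AP-1 and ETS factors, regulators known to bind protease promoters, 0, 4, 3 and 5 were called lower against C2 along the dose and none higher, with 3 at an unadjusted p under 0.05 and 2 called by DESeq2 at 0.0005 μM. Over all genes 0.479%, 0.776%, 3.23% and 1.96% were called lower. FOSB fell by 2.54 at 0.005 μM, 2.22 at 0.05 μM and 3.39 at 0.5 μM on the log2 scale, and ATF3 by 1.33, 1.11 and 1.62. JUND fell by 0.89, 0.94 and 1.35, and FOS by 0.96 at 0.005 μM and 0.97 at 0.5 μM. None of the 8 tested activators and inducers of metalloproteinases (BSG, FURIN and others) was called at any dose in edgeR or DESeq2, with 1, 0, 1 and 1 at an unadjusted p under 0.05. Of 13 tested ADAM and ADAMTS proteases, 1 was called higher at each dose (ADAMTS4, which had 0 to 6 counts untreated and passed the filter only through treated groups), and ADAM10 and ADAM17, the sheddases, fell at 0.05 μM by 0.59 and 0.53. The shares of all genes called higher were 1.87%, 2.5%, 5.09% and 4.36% along the dose.

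For each member with a mean of at least 5 CPM, so not for MMP2 and TIMP3, the genes most like it in pattern were found. The measure was Pearson's r of log2 CPM over the 12 samples among 11009 genes with a mean of at least 5 CPM. It is a description, since the samples share libraries and treatment. MMP1 was nearest to MMP13 (r = 0.988) and MMP3 (r = 0.984), and MMP3 to MMP1 and INHBA (r = 0.983). MMP14 was nearest to NOP53 and EIF1, TIMP1 to S100A11 and MED19, TIMP2 to DISP2 and WDR82, PLAU to RAB11FIP5 and LRP10, and PLAUR to CBFB and NMT1, with r between 0.894 and 0.992. Between members, TIMP2 and PLAU had r = 0.912 and MMP14 and PLAU r = 0.853, and MMP1 and PLAU r = -0.17. In C1 replicates 1 and 2 lay far apart, at 425 and 243 CPM for PLAU, 169 and 63.1 for TIMP2 and 239 and 131 for MMP14. Replicate 2 is the library that stood apart, and its part in these correlations was not tested.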

How the data were processed

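RNA was sequenced from 12 samples of MDA-MB-231 cells. Per the labels and the methods of the study, the authors trimmed paired reads with Trimmomatic 0.39, checked them with FastQC 0.11.9, aligned them to GRCh37 with STAR 2.7.5, kept unique alignments and counted reads in exons. The deposited values are raw counts per gene. The 12 single-sample tables equalled the series table. Symbols, lengths and positions came from the gene names table and GENCODE release 44 on GRCh37, and 55665 identifiers had a symbol.

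Counts were fitted in R 4.3.3 with edgeR 4.0.16 (filterByExpr, TMM, robust quasi-likelihood), with Benjamini-Hochberg adjustment over all genes tested, and called at an adjusted p under 0.05. Each dose against C2, C2 against C1 and 0.5 against 0.0005 μM came from 1 model of 12 samples with 6 residual degrees of freedom. The slope on log10 dose used 8 treated samples, and treated against untreated a separate fit. Standard errors are the log2 change over the square root of F. Exact permutation of 2 against 2 samples cannot go below p = 0.333. Replicates are biological by the methods of the study, and they differed by more than counting noise. Alternatives included DESeq2 1.42.0. Named list genes were called in at least 2 comparisons with a mean of at least 5 CPM, at most 4 per list by adjusted p. MMP9, MMP12, A2M, PLAT, BSG, FURIN, CTSS, ADAMTS4, single markers and the genes around MMP1 are named beside this rule. The members and lists were chosen with earlier results of these data known. Genes most like a member had the highest r. The procedure was tested on simulated data. PECAM1 could not be matched to an identifier.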

Additional observations from a re-analysis of the deposited data

Results flagged for a closer look

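The effect of Paclitaxel on several genes differed between the lowest and the highest dose, which was tested directly as 0.5 against 0.0005 μM in the edgeR quasi-likelihood test, with p-values adjusted by Benjamini-Hochberg. Among the members, MMP1 (log2 change -2.08, adjusted p = 0.00883) and MMP3 (-2.32, adjusted p = 3.87e-04) were lower at the higher dose. Among the other genes of the lists, MMP13 (-2.14, adjusted p = 3.07e-04), MMP10 (-2.39, adjusted p = 0.0410), SERPINB2 (-1.61, adjusted p = 0.0206), FOSB (-1.95, adjusted p = 0.0401) and ATF3 (-0.98, adjusted p = 0.0422) were lower as well. For the first 5 genes the level at the lowest dose was the highest of all groups, while FOSB and ATF3 were not called at 0.0005 μM against C2 and had log2 changes of -1.44 and -0.63 there. The calls of FOSB and ATF3 were lost in 8 of 21 alternatives each, that of MMP10 in 9, and those of SERPINB2 and MMP1 in 4, while MMP3 and MMP13 kept theirs in all 21.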

How the results depend on the processing

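Over the alternatives to the 8 comparisons, the calls of MMP3 and those of MMP1 at 0.0005 and 0.005 μM and on the slope were kept in every fit run. The other pairs of groups had no alternatives. Of the 330 refits of the 16 called member values, 307 kept the call and 23 lost it, with no change of sign. Among the uncalled values of the members 66 refits were called and 56 changed sign, and no refit with a changed sign was called. Of 2319 refits of 114 called values of list genes 390 lost the call.

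The number of members called moved by over 1.5 times in these alternatives. At 0.0005 μM, where 2 were called, it was 4 with no filter beyond 1 count, 4 with DESeq2, 5 in the 4 samples of the comparison alone and 4 without both C1 samples. At 0.05 μM (2) it was 4 with GC and length correction, 4 in the 4 samples alone and 5 without both C1 samples. At 0.5 μM (2) it was 4 in both of the last settings, as in 0.5 against 0.0005 μM (2), and on C2 against C1 (0) it was 1 with no filter. Leaving out 1 library gave 2 to 4 at 0.0005 μM, 2 to 3 at 0.005 μM, 1 to 5 at 0.05 μM, 1 to 4 at 0.5 μM, 0 to 3 on C2 against C1, 1 to 4 for 0.5 against 0.0005 μM, 2 to 2 on the slope and 3 to 4 in treated against untreated. Counts over all genes moved further, such as 1596 at 0.5 μM against C2, which was 129 without C2 replicate 1 and 5046 without C1 replicate 2. The cause was not tested.

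With the replicate block the number of members called was 2, 3, 3, 2, 0, 2, 2 and 3 in the order of the 4 doses against C2, C2 against C1, 0.5 against 0.0005 μM, slope and treated against untreated, and TIMP3 was called at 0.05 μM (log2 change -1.10, adjusted p = 0.0461). Differences between replicates correlated from -0.30 to 0.36 over 15 pairs of groups, 6 of them over 0.1, which falls short of the criterion that every pair be over 0.1, so the samples were treated as sharing only a number. The block with GC and length correction called 2, 3, 3, 3, 0, 2, 2 and 4.

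Some uncalled log2 changes changed sign. At 0.0005 μM, PLAU was -0.00060 with GC and length correction and replicate block. At 0.005 μM, MMP14 was -0.0047 with DESeq2 and -0.041 with C1 and C2 as control. At 0.05 μM, PLAU was 0.0030 in the 4 samples alone, and PLAUR was 0.012 with no filter, 0.0019 with a mean count of at least 10, 0.0060 with GC and length correction, 0.0060 with the block as well and 0.022 in the 4 samples alone. At 0.5 μM, MMP14 was 0.018 with GC and length correction and 0.015 with the block. On C2 against C1, PLAU was 0.013 with the replicate block, 0.059 with GC and length correction and 0.073 with both. For 0.5 against 0.0005 μM, TIMP3 was 0.046 and 0.042 with GC and length correction without and with the block, and on the slope TIMP1 was 0.0049 and 0.0087.

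Leaving out 1 library gave these ranges. MMP14 ran from -0.16 to 0.16 at 0.005 μM, -0.38 to 0.019 at 0.5 μM, -0.42 to 0.42 on C2 against C1 and -0.055 to 0.25 in treated against untreated. MMP2 ran from -1.48 to 0.51 on C2 against C1 and -0.083 to 0.15 on the slope, and MMP3 from -0.060 to 0.53 on C2 against C1. PLAU ran from -0.11 to 0.17 at 0.0005 μM, -0.18 to 0.10 at 0.05 μM, -0.32 to 0.45 on C2 against C1 and -0.26 to 0.015 in treated against untreated, and PLAUR from -0.11 to 0.057 at 0.05 μM. TIMP1 ran from -0.40 to 0.21 for 0.5 against 0.0005 μM and -0.042 to 0.12 on the slope. TIMP2 ran from -0.51 to 0.13 at 0.0005 μM, -0.40 to 0.24 at 0.05 μM, -0.84 to 0.55 on C2 against C1 and -0.073 to 0.024 on the slope. TIMP3 ran from -0.11 to 0.050 for 0.5 against 0.0005 μM, -0.038 to 1.20 on C2 against C1 and -0.0025 to 0.072 on the slope.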

Other observations

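Cysteine proteases and their inhibitors were also measured. Of 10 cathepsins 1 was called higher at each dose, CTSS, a lysosomal protease with activity outside the lysosome, with log2 changes of 1.81, 1.51, 1.17 and 0.88 against C2 (adjusted p = 5.14e-04, 0.00243, 0.00556 and 0.0276, edgeR quasi-likelihood test). CTSS was named after its values were seen. The shares of all genes called higher were 1.87%, 2.5%, 5.09% and 4.36% along the dose. Of 5 tested cystatins none was called at any dose, with 0, 0, 1 and 0 at an unadjusted p under 0.05 and none by DESeq2.

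ADAMTS4, an aggrecanase, had 0 and 1 counts in C2 and 14 to 48 in the treated samples. It passed the filter only through treated groups and was also named after its values were seen.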
